A study of Trichechus manatus latirostris with 11 samples.

Results

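The genes described here encode the coagulation, complement and acute phase systems of the blood. A list of 52 gene names was matched to the deposited results table by transcript record, and 27 of the names had a row, 1 row each, among 15298 rows of the table and 10080 rows with a RefSeq symbol. The other 25 names (F5, F7, F10, F11, TFPI, PLAU, C1S, C6, C7, C4BPA, CFI, CD46, CD55, CD59, CR1, C5AR1, MASP1, ORM1, CRP, SAA1, FGB, FGG, A2M, PTX3 and ALB) were not matched to a row and were not analysed here.

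RNA was measured by RNA-seq in leukocytes of adult Florida manatees, taken as the buffy coat that forms between plasma and red cells on centrifugation. The species was Trichechus manatus latirostris. The Red tide group held 4 animals brought to Lowry Park Zoo with red tide illness, of which, by the study's account, 2 were sampled on arrival and 2 after a course of treatment. The Control group held 7 animals, of which 2 came from the Indian River Lagoon, 4 from Crystal River and 1 had been recovering from pneumonia at Lowry Park Zoo. No agent was given as an experimental treatment, and the animals carried no engineered allele. Ribosomal and globin RNA were removed before all the libraries were made. Illness, veterinary treatment, sampling place and sampling date differed between the groups and cannot be told apart. The labels describe storage of the cells in RNAlater, and so do the study's methods for each animal. The same methods also describe buffy coats of the red tide animals as frozen at once and archived.

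The table holds, for each record, a mean of normalized counts, that is of reads divided by the size factor of the library, over 4 libraries and over 7 libraries. Its columns do not name the groups. The overall mean was the mean of these values weighted 4 to 7 in all 15298 rows, and 4 and 7 are the sizes of the Red tide and the Control group, so values are given below as the 4-library mean and the 7-library mean. The title of the deposited results names red tide first and 7 others second, the same way as the match by group size. The study's text attaches its directions of change to the columns the opposite way. Which animals a higher 4-library mean belongs to is therefore not settled by the sources used here, and no value below, that of IL6 included, is given as a rise or a fall in red tide animals. A ratio is always the 4-library mean over the 7-library mean, and a log2 ratio above 0 means a higher 4-library mean.

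Reads of single libraries were recovered from the group means where these were low, up to a 4-library mean of 80 and a 7-library mean of 6. Of the 27 genes, 16 had reads of each of the 4 libraries, 7 had reads of each of the 7 libraries and 6 had both. Single libraries are named by their size factors, which grow with depth. These were 1.56, 1.03, 0.62 and 0.372 in the 4-library group and 1.73, 1.53, 1.19, 1.17, 1.11, 1.1 and 0.702 in the 7-library group, a range of 4.66 times from the smallest to the largest. A normalized count of the library with size factor 0.372 therefore rests on the fewest reads. The recovered libraries are not linked to particular animals. For the 11 genes with a 4-library mean above 80 (F3, F8, PROS1, SERPING1, PLAUR, C1QA, C1QB, MASP2, C3, CFD and CFP) the spread among the 4 libraries is not known.

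Coagulation starts when tissue factor, the product of F3, is exposed to blood and binds factor VII, and it ends when thrombin turns fibrinogen into fibrin. Protein C, protein S and thrombomodulin restrain it, and plasminogen activators dissolve the clot. Complement is started by C1q and the C1r and C1s proteases, by lectins with MASP proteases, or by the alternative loop of factor B, factor D and properdin, and all 3 routes meet at C3 and then C5. Most of the plasma proteins of these systems are secreted by hepatocytes, many of them as acute phase proteins under the control of IL6, whereas monocytes and neutrophils make tissue factor, the urokinase receptor, C1q, properdin, factor D and the receptors for complement fragments. Normalized counts are not divided by transcript length, so levels are compared between groups for 1 gene and not between genes.

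The largest ratio between the group means, taken over the 27 genes, was that of F3, tissue factor, with 473 normalized counts in the 4-library mean against 4.19 in the 7-library mean. PLAUR, the urokinase receptor of leukocytes, and PROS1, protein S, also had higher 4-library means, and SERPING1, the C1 inhibitor, SERPINA1, alpha-1-antitrypsin, and C1R, a protease of the C1 complex, had higher 7-library means. The C1q chains, C3 and the alternative pathway genes differed less than 2-fold. FGA, the fibrinogen alpha chain, was read mostly in 2 of the 4 libraries. TTR, ITIH4, AHSG and APOH, genes of plasma proteins made by the liver, were near the detection limit in both groups.

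Of the 27 genes, 6 had a 4-library mean at least 2-fold higher (F3, PROS1, PLAUR, FGA, C3AR1 and AHSG), beside 23.9% of all 15298 rows. The 7-library mean was at least 2-fold higher in 3 of them (SERPINA1, SERPING1 and C1R), beside 10.4% of all rows, and 18 differed less than 2-fold. AHSG is in the first count by its means alone, since it rested on 2 reads in each group, and without it the count was 5. Among the 21 genes with an overall mean of at least 10 normalized counts, 5 had a 4-library mean at least 2-fold higher, beside 12.3% of the 10225 rows at that limit, and 3 had a 7-library mean at least 2-fold higher, beside 9.59%. In 19 genes the 4-library mean exceeded the 7-library mean, beside 56.4% of all rows and 70.9% of the rows with an overall mean under 10, and in 8 the reverse held. The median log2 ratio was 0.36, beside 0.14 over all rows and -0.01 over the rows with an overall mean of at least 10 normalized counts. Group means alone allow no test, so these counts are a description.

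**Figure D1:**
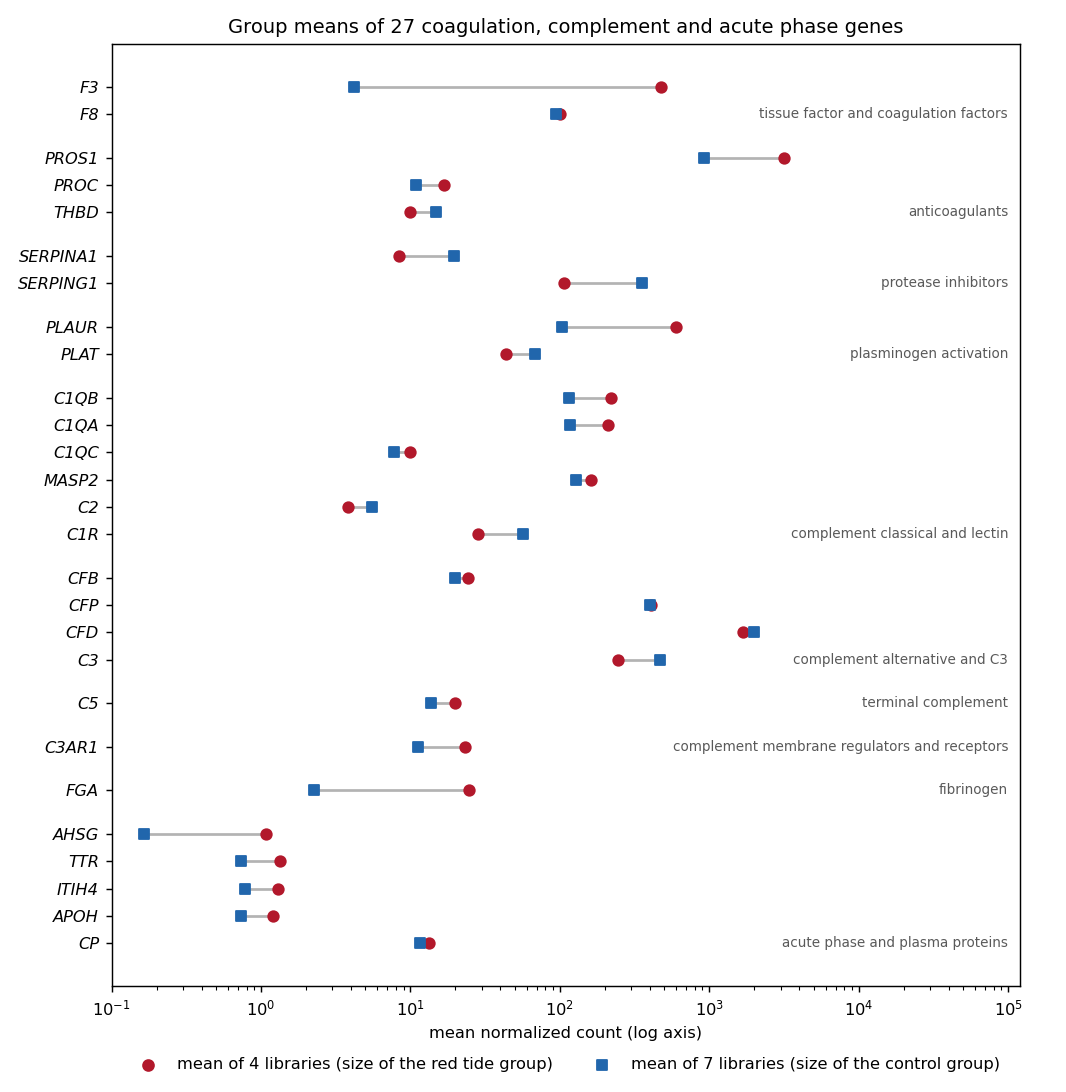
Mean normalized count (log axis) of the 27 genes over 4 libraries (red circles) and over 7 libraries (blue squares), grouped by role, with a grey line between the means of a gene. The circle of F3 lies at 473 and its square at 4.19, and the 4 genes TTR, ITIH4, AHSG and APOH lie at or below 1.35 in both means.

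The genes were sorted by where the protein is known to be made, and 14 belonged to a list of genes that leukocytes make, called leukocyte-made here. Some of these, such as C3, SERPINA1 and SERPING1, are plasma proteins that the liver secretes as well, and the counts by origin depend on that placing. In it 3 had a 4-library mean at least 2-fold higher (F3, PLAUR and C3AR1) and 2 a 7-library mean at least 2-fold higher (SERPINA1 and SERPING1), with a median log2 ratio of 0.15. Of the 8 genes on the liver-made list, 2 had a 4-library mean at least 2-fold higher (FGA and, by its means alone, AHSG) and none a 7-library mean at least 2-fold higher, with a median of 0.73, or 0.72 without AHSG. All 8 had the higher value in the 4-library group (PROC, FGA, MASP2, C5, TTR, ITIH4, AHSG and APOH). PROC, C5, ITIH4, TTR and APOH did not without 1 of the 4 libraries, and the 4-library means of TTR and APOH were then 0. The 5 genes made in several places (F8, PROS1, PLAT, C1R and CP) had a median of 0.09. Over all rows the median was 0.14, with 23.9% at least 2-fold higher in the 4-library mean and 10.4% in the 7-library mean. Rows with a mean over all libraries under 10 had a median of 0.87, and 70.9% of them had a higher 4-library mean. Of the liver-made genes 4 had both means under 2, so the medians by origin are not read as a result about origin. In buffy coat RNA, fewer cells of a type and less RNA per cell cannot be told apart.

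Tissue factor is the cell surface receptor that starts coagulation, and in blood it is made mainly by activated monocytes. The 7 libraries held 36 reads of F3 (XM_004378791.1). In the order of falling size factor their normalized counts were 4.04, 7.19, 3.36, 0, 5.42, 3.62 and 5.70, a mean of 4.19 ± 2.29 (SD, n = 7). One library had no read of F3, and the other 6 lay within a narrow range of low values. The 4-library mean of 473 normalized counts corresponds to a sum of between 703 and 2952 reads over the 4 libraries. At least 1 of the 4 libraries must lie at or above 473, and so above the highest of the 7 at 7.19, but how the reads were shared among the 4 is not known. The log2 ratio was 6.82, a 113-fold higher 4-library mean, and it ran from 6.60 to 7.00 when single libraries of the 7 were omitted.

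F8 (XM_004390882.1), the cofactor that speeds the activation of factor X, had means of 100.1 and 94.0 normalized counts, a log2 ratio of 0.09. Its means were nearly equal, unlike those of F3. No other factor of the clotting cascade on the list had a row.

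Beside F3 and PLAUR, genes that leukocytes switch on early after stimulation had higher 4-library means. Of 22 genes on a list of immediate early and NF-kB response genes, 19 had a row. Of these, 17 had a 4-library mean at least 2-fold higher, beside 23.9% of all rows. None had a 7-library mean at least 2-fold higher, beside 10.4% of all rows, and the median log2 ratio was 2.97. The list was written with earlier results of these data known, so the count is a description. The summed means were 104072 normalized counts over the 4 libraries and 12613 over the 7 libraries. TNFAIP3, an inhibitor of NF-kB, had 7412 and 486 normalized counts, and CXCL8, a neutrophil chemokine, had 42281 and 3669.7. Their part in the values of F3 and PLAUR was not tested.

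Protein S, the product of PROS1 (XM_004371330.1), is the cofactor of activated protein C and is made by hepatocytes, endothelium and megakaryocytes. Its means were 3187 and 917 normalized counts, a log2 ratio of 1.80 and a 3.47-fold higher 4-library mean. Beside it, 3 of the 4 platelet and megakaryocyte genes with a row, of 9 listed, had a 4-library mean at least 2-fold higher. The share over all rows was 23.9%. The 4 platelet and megakaryocyte genes had a median log2 ratio of 1.44 and summed means of 8859 and 2997 normalized counts. ITGB3, the beta chain of the platelet fibrinogen receptor, had 4725 and 1019 normalized counts, and GP9, a subunit of the von Willebrand factor receptor, had 66.1 and 18.6. Their part in the value of PROS1 was not tested.

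PROC (XM_004387032.1) encodes protein C, the liver-made protease that inactivates the cofactors of clotting. Its 4 libraries had 10.3, 5.84, 12.9 and 37.7 normalized counts from 16, 6, 8 and 14 reads, a mean of 16.7 ± 14.3 (SD, n = 4), against a 7-library mean of 10.9. The library with size factor 0.372 stood above the others, and without it the log2 ratio went from 0.61 to -0.18. THBD (XM_004376419.1), thrombomodulin, the receptor on which thrombin activates protein C, had 3.21, 6.81, 27.4 and 2.69 normalized counts from 5, 7, 17 and 1 reads, a mean of 10.0 ± 11.7 (SD, n = 4), against 14.8. In THBD 1 library lay above the 7-library mean and 3 below it. Without the library of size factor 0.62 its 4-library mean was 4.24 and its log2 ratio went from -0.56 to -1.81.

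The inhibitors of serine proteases on the list had higher 7-library means. SERPINA1 (XM_004376696.1), which blocks neutrophil elastase and is made by monocytes and neutrophils as well as the liver, had 10.9, 14.6, 8.06 and 0 normalized counts in the 4 libraries from 17, 15, 5 and 0 reads, a mean of 8.39 ± 6.20 (SD, n = 4), against a 7-library mean of 19.6. All 4 libraries lay below that mean. The 7-library mean was 2.33-fold higher, a log2 ratio of -1.22, and without the library of size factor 0.372, which held no read, the log2 ratio was -0.81. SERPING1 (XM_004389190.1), which stops C1r, C1s and kallikrein, had means of 106 and 353 normalized counts, a 3.33-fold higher 7-library mean and a log2 ratio of -1.74.

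Beside the inhibitors, 6 of the 7 neutrophil genes with a row, of 10 listed, had a 7-library mean at least 2-fold higher. The share over all rows was 10.4%. The 7 neutrophil genes had a median log2 ratio of -2.36 and summed means of 2807 and 12562 normalized counts. S100A9, an abundant neutrophil and monocyte protein, had 835 and 5429 normalized counts, and CSF3R, the receptor for granulocyte colony stimulating factor, had 425 and 1989.8. FPR1, the formyl peptide receptor, had 698 and 442, the other way round. Of 10 monocyte genes, 5 had rows, 6 rows in all, with a median log2 ratio of -0.13, and CSF1R, the receptor for macrophage colony stimulating factor, had 449 and 496 normalized counts. The 3 T cell rows had a median log2 ratio of -0.42, the 3 B cell rows one of -0.88 and the 2 endothelial rows one of 0.85, and the 1 fibroblast row, PDGFRA, had 12.2 and 3.06 normalized counts. The part of these cells in the values of SERPINA1 and SERPING1 was not tested. As a check of the buffy coat label, the neutrophil, monocyte, T cell, B cell and platelet lists each held genes that were read, while PTPRC, CD3E and CD14 were not matched to a row.

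In plasminogen activation the receptor and the tissue activator differed in direction. PLAUR (XM_004388775.1), which holds urokinase at the leukocyte surface, had means of 599 and 103 normalized counts, a log2 ratio of 2.54 and a 5.81-fold higher 4-library mean. PLAT (XM_004382082.1), tissue plasminogen activator, had 63.5, 39.9, 33.8 and 37.7 normalized counts in the 4 libraries from 99, 41, 21 and 14 reads. Its mean was 43.7 ± 13.4 (SD, n = 4) against a 7-library mean of 68.3, a log2 ratio of -0.64. All 4 libraries lay below the 7-library mean, although the means were less than 2-fold apart.

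**Figure D2:**
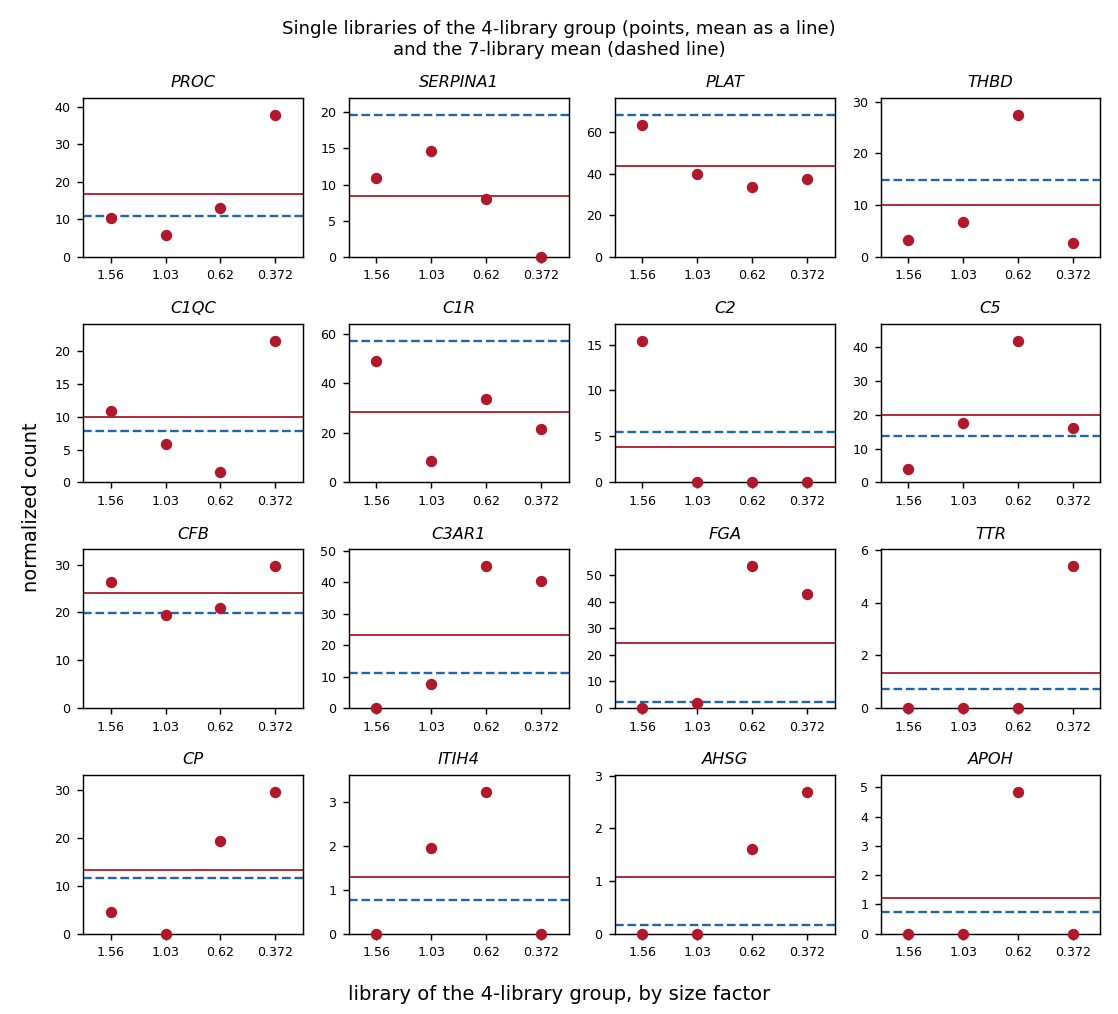
Normalized count in each of the 4 libraries (points, by size factor on the horizontal axis) for the 16 genes with recovered reads, with the 4-library mean (red line) and the 7-library mean (dashed blue line). All points lie below the dashed line in SERPINA1, PLAT and C1R, and FGA and C3AR1 have high points in the libraries of size factor 0.62 and 0.372 only.

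The plot of single libraries shows how the 4 libraries stood to the 7-library mean. None of the 16 genes had all 4 libraries above that mean, beside 10.1% of the 9632 rows with reads of the 4 libraries. All 4 lay below it in 3 genes (SERPINA1, PLAT and C1R), beside 17.3% of those rows. Genes and rows with a 4-library mean above 80, F3, PLAUR and PROS1 among them, were left out of both counts. The counts therefore describe genes with low 4-library means and not the whole list. The 7 libraries of SERPINA1, PLAT and C1R are not known singly, so it is not known whether the groups overlapped. The highest of the 4 libraries was the one of size factor 0.62 in 6 of the 16 genes and the one of size factor 0.372 in another 6, beside 31.3% and 34.6% of the rows.

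In the classical pathway the chains of C1q, the protein that binds antibody on a target, had 4-library means less than 2-fold higher. C1QA (XM_004377265.1) had 210.1 and 117 normalized counts, a log2 ratio of 0.85, and C1QB (XM_004377263.1) had 220.3 and 115, a log2 ratio of 0.94. C1QC (XM_004377264.1) was read far less, with 10.9, 5.84, 1.61 and 21.5 normalized counts in the 4 libraries from 17, 6, 1 and 8 reads, a mean of 9.97 ± 8.59 (SD, n = 4) against 7.74. Of its libraries 2 lay above and 2 below the 7-library mean. Its log2 ratio was 0.36 and went to -0.34 without the library of size factor 0.372.

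C1R (XM_004387242.1), the protease that activates C1s, had the opposite direction to the C1q chains. Its 4 libraries had 48.8, 8.76, 33.8 and 21.5 normalized counts from 76, 9, 21 and 8 reads, a mean of 28.2 ± 17.1 (SD, n = 4), against a 7-library mean of 57.1. The 7-library mean was 2.02-fold higher, a log2 ratio of -1.02. Without the library of size factor 1.03 the log2 ratio was -0.72, and without that of size factor 0.372 it was -0.91, both under 2-fold. MASP2 (XM_004385161.1), a liver-made protease of the lectin pathway, had means of 161 and 128 normalized counts, a log2 ratio of 0.33.

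C2 (XM_004390768.1), which gives the protease part of the classical C3 convertase, had recovered reads in both groups. The 4 libraries had 15.4, 0, 0 and 0 normalized counts, all 24 reads in the library of size factor 1.56. The 7 libraries had 8.09, 0, 17.6, 3.41, 1.81, 1.81 and 5.70 normalized counts from 47 reads. The means were 3.85 ± 7.70 (SD, n = 4) and 5.49 ± 5.99 (SD, n = 7), and the groups overlapped. The exact two-sided permutation test over all 330 allocations of the 11 libraries gave p = 0.679, adjusted p = 0.887. The ratio of reads over summed size factors was 1.22 (95% exact interval 0.713 to 2.03, counting error only), above 1 although the ratio of the means was below 1. Without the 7-library group's library of size factor 1.19 the log2 ratio went from -0.51 to 0.15, and without the one 4-library group library that held reads the 4-library mean was 0.

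C3, the component on which the complement routes meet, and the genes of the alternative pathway differed less than 2-fold. C3 (XM_004378411.1) had means of 244 and 468 normalized counts, a log2 ratio of -0.94. CFD (XM_004378524.1), factor D, had 1686 and 2000.2, a log2 ratio of -0.25, and CFP (XM_004376954.1), properdin, had 408 and 399, a log2 ratio of 0.03. CFB (XM_004390771.1), factor B, had 26.3, 19.5, 21.0 and 29.6 normalized counts in the 4 libraries from 41, 20, 13 and 11 reads, a mean of 24.1 ± 4.70 (SD, n = 4) against 19.9. Factor B had the smallest spread relative to its mean among the genes with recovered reads of the 4 libraries, and 3 of its libraries lay above the 7-library mean.

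C5 (XM_004372110.1), the component that opens the terminal pathway, had 3.85, 17.5, 41.9 and 16.1 normalized counts in the 4 libraries from 6, 18, 26 and 6 reads, a mean of 19.9 ± 15.9 (SD, n = 4) against 13.8. Its log2 ratio was 0.53 and went to -0.14 without the library of size factor 0.62. C3AR1 (XM_004387277.1), the receptor for the C3a fragment, had 0, 7.79, 45.1 and 40.4 normalized counts from 0, 8, 28 and 15 reads, a mean of 23.3 ± 22.7 (SD, n = 4) against 11.2. The libraries of size factor 0.62 and 0.372 lay far above the 7-library mean and the others below it. The 4-library mean was 2.09-fold higher, a log2 ratio of 1.06, and the log2 ratio was 0.52 without the library of size factor 0.62 and 0.66 without that of size factor 0.372.

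FGA (XM_004378860.1), the alpha chain of fibrinogen, had the same libraries high as C3AR1. Its normalized counts in the 4 libraries were 0, 1.95, 53.2 and 43.0 from 0, 2, 33 and 16 reads. In the 7 libraries they were 1.73, 4.57, 0, 6.83, 0, 0 and 2.85 from 3, 7, 0, 8, 0, 0 and 2 reads. Of the 4 libraries 2 lay above the highest of the 7, while the other 2 lay within their range, so the groups overlapped. The means were 24.5 ± 27.5 (SD, n = 4) and 2.28 ± 2.65 (SD, n = 7), a log2 ratio of 3.43 and a 10.7-fold higher 4-library mean. The exact two-sided permutation test gave p = 0.0788, adjusted p = 0.295. FGA entered the test only through the wider limit on the 4-library mean, so its p-values are no independent evidence of a higher 4-library mean. Without the library of size factor 0.62 the log2 ratio was 2.72, and without that of size factor 1.56, which held no read of FGA, the exact permutation p was 0.0333. The ratio of reads over summed size factors was 6.08, with a 95% exact interval of 3.56 to 10.8 that covers counting error only and not the spread between libraries. The interval takes each read as independent. Reads were sequenced in pairs, so it may be too narrow even for counting error.

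Unlike FGA, the 4 liver-made genes TTR, APOH, ITIH4 and AHSG had both means under 10 normalized counts, and under 2 as well. TTR (XM_004386903.1), transthyretin, a carrier of thyroid hormone and retinol whose plasma level is known to fall in the acute phase, had 2 reads, both in the library of size factor 0.372, and 6 reads in the 7-library group, all in the library of size factor 1.17. Its means were 1.35 ± 2.69 (SD, n = 4) and 0.731 normalized counts. APOH (XM_004374197.1), beta-2-glycoprotein 1, had 3 reads in the library of size factor 0.62 and 6 reads in the same 7-library group library as TTR, with means of 1.21 ± 2.42 (SD, n = 4) and 0.731. Each of these genes was therefore read in 1 library of each group. The reads were sequenced in pairs, so a count of 6 may stand for fewer fragments.

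ITIH4 (XM_004368751.1), an inter-alpha-trypsin inhibitor heavy chain, had 2 reads in each of the libraries of size factor 1.03 and 0.62, and 6 reads in the 7-library group's library of size factor 1.1. AHSG (XM_004382251.1), fetuin-A, had 1 read in each of the libraries of size factor 0.62 and 0.372 and 2 reads in the 7-library group's library of size factor 1.73. The means of ITIH4 were 1.29 ± 1.58 (SD, n = 4) and 0.776 normalized counts, and those of AHSG were 1.08 ± 1.32 (SD, n = 4) and 0.165. No ratio is given for AHSG, since both groups lay below 3 reads. The 7-library means of TTR, APOH, ITIH4 and AHSG were 0 without the library that held their reads, and so were the 4-library means of TTR and APOH. Without the 4-library group's library of size factor 0.62 the log2 ratio of ITIH4 went from 0.74 to -0.26.

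At this depth no difference was detectable in these 4 genes. The exact two-sided permutation test gave p = 0.745 for TTR, 1.0 for APOH, 0.83 for ITIH4 and 0.109 for AHSG, with adjusted p of 0.899, 1.0, 0.941 and 0.303. TTR and APOH were read in 2 of the 11 libraries each, so the smallest exact permutation p they could give was 0.109 and the test could not call them; for ITIH4 and AHSG it was 0.0242. The ratio of reads over summed size factors was 0.795 for TTR (95% exact interval 0.0785 to 4.45), below 1 although the ratio of the means was above 1. It was 1.19 for APOH (0.193 to 5.59) and 1.59 for ITIH4 (0.33 to 6.71), and each of these intervals spans 1. These p-values measure the spread between the libraries of different animals.

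**Figure D3:**
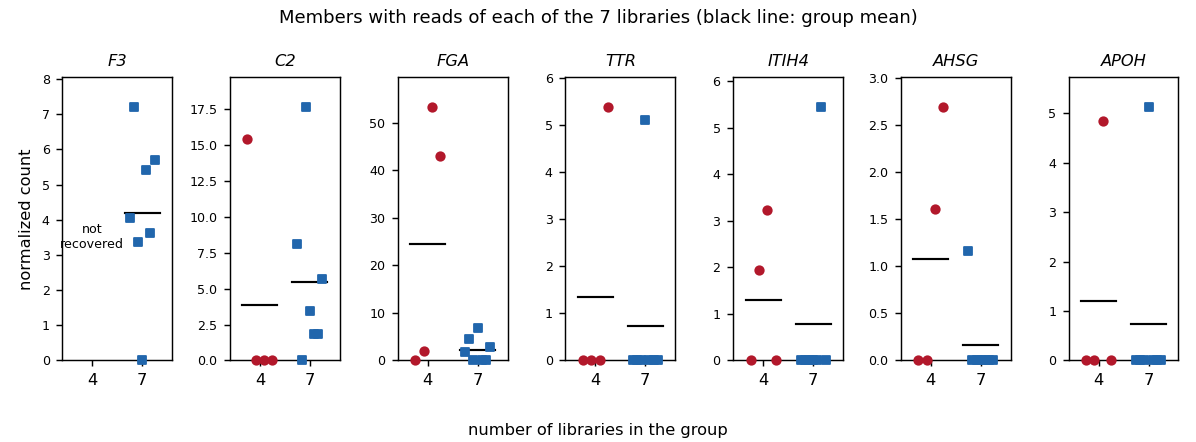
Normalized count in single libraries of the 4-library group (red circles) and the 7-library group (blue squares) for the 7 genes with reads of each of the 7 libraries, with a black line at each group mean. The groups overlap in C2, FGA, TTR, ITIH4, AHSG and APOH; the 4 libraries of F3 were not recovered.

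By the exact permutation test 0 of the 6 genes with reads of all 11 libraries (FGA, C2, TTR, ITIH4, AHSG and APOH) had an unadjusted p under 0.05, beside 21.4% (952 of 4445 rows), and TTR and APOH could not have had one. Rows were searched up to a 4-library mean of 80 but a 7-library mean of only 6. Rows with a 4-library mean above 6, FGA among them, were therefore tested only where the 7-library mean was lower. The 21.4% holds such rows, so the 0 of 6 is not read against it. After Benjamini-Hochberg adjustment over these rows none was called, members included (0.0% of the 4445 rows). The smallest p over the rows was 0.00303, the smallest that 330 allocations allow, and the smallest adjusted p was 0.11. With both means at most 6, which holds for 5 of the 6 genes and not for FGA, the share of rows with an unadjusted p under 0.05 was 7.75% (237 of 3058).

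CP (XM_004379224.1), ceruloplasmin, a copper-carrying ferroxidase made by the liver and by macrophages, was read more than the 4 genes above. The 4 libraries had 4.49, 0, 19.3 and 29.6 normalized counts from 7, 0, 12 and 11 reads, a mean of 13.4 ± 13.6 (SD, n = 4) against 11.6. The libraries of size factor 0.62 and 0.372 were again the high ones. Without the library of size factor 0.372 the log2 ratio went from 0.21 to -0.54, and leaving out that of size factor 0.62 gave -0.03.

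Of 12 hepatocyte genes 6 had a row, and TTR and APOH among them are also liver-made genes described above. SERPINC1, antithrombin, had 1 read in the 4 libraries and 3 in the 7, and TAT, tyrosine aminotransferase, had 3 and 3. CPS1, an enzyme of the urea cycle, had means of 17.0 and 3.36 normalized counts, with 24 and 10 of its reads in the libraries of size factor 0.62 and 0.372, the libraries in which FGA was high. APOA1, the main protein of high density lipoprotein, had 90.5 and 198 normalized counts, the other way round. The 4-library mean was above the 7-library mean in 4 of the 6, TTR and APOH included, beside 56.4% of all rows. The median log2 ratio of the 6 was 0.80, and it is not separate from the liver-made genes. The summed means of the list were 112 and 204 normalized counts, most of it APOA1, and none of its matched genes had a mean of 0. The part of liver RNA in the values of FGA was not tested.

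Other genes of the same systems, which were not on the list of 52, were described in the same way. Of 31 further coagulation genes 20 had a row, 3 with a 4-library mean at least 2-fold higher and 2 with a 7-library mean at least 2-fold higher, and their median log2 ratio was 0.24. Of 23 further complement genes 7 had a row, 2 with a 4-library mean at least 2-fold higher and none with a 7-library mean at least 2-fold higher, and their median was 0.04. The 11 rows of further acute phase genes and their regulators held 2 in each direction, with a median of 0.47. Over all rows 23.9% had a 4-library mean at least 2-fold higher and 10.4% a 7-library mean at least 2-fold higher. Among the rows of these lists, IL6 and IL1B were at least 4-fold apart with a higher mean of at least 10 normalized counts. IL6, which drives the acute phase response of the liver, had 597 and 0.941 normalized counts. IL1B, which acts together with IL6, had 19298 and 880.4. HP, haptoglobin, and C1RL, a complement gene, were on these lists but were not matched to a row. The study reports both as changed between the groups, so the lists are not complete for such genes. The plot of ratios by gene list sets these lists beside the 27 genes.

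**Figure D4:**
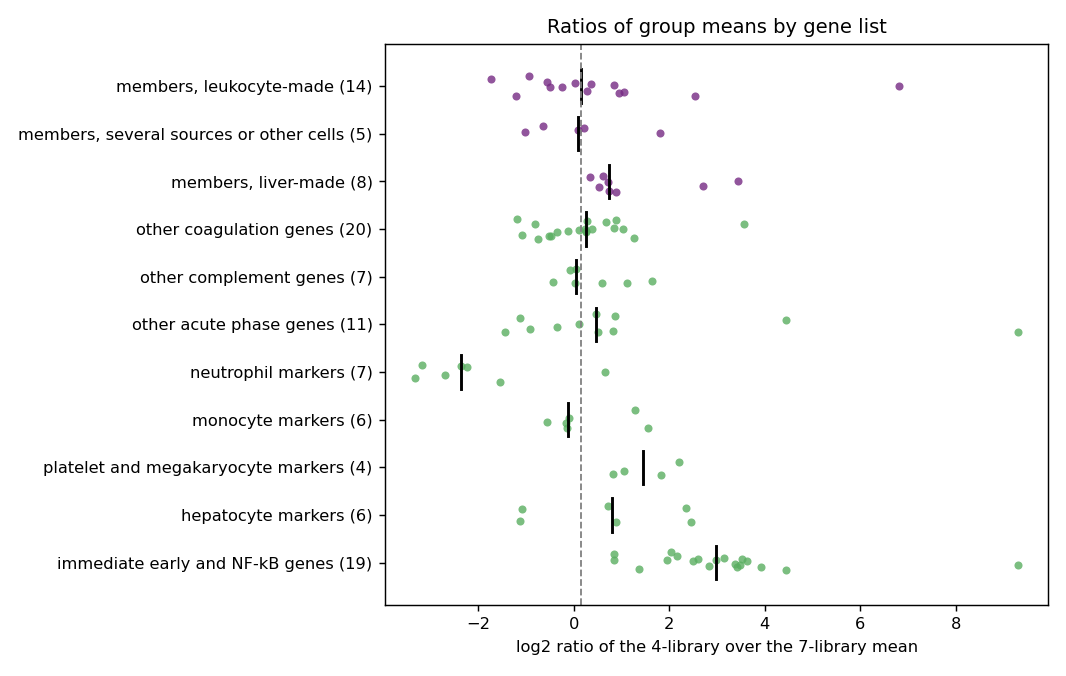
Log2 of the ratio of group means (4 libraries over 7) for each row of a gene list (points; number of rows in brackets), with the median of the list (black bar) and the median of all rows (dashed line at 0.14). The genes of the 3 origin lists (purple) have medians of 0.15, 0.09 and 0.73, the neutrophil genes one of -2.36 and the immediate early and NF-kB genes one of 2.97.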

How the data were processed

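RNA-seq of buffy coats from 4 Red tide and 7 Control manatees was analysed from the deposited results table. The authors filtered reads with Cutadapt, mapped them to TriManLat1.0 with Bowtie2, removed duplicates, counted uniquely mapped reads per gene sequence and ran DESeq in DEB. The sources used here name neither the annotation release nor the counting software. The deposited values used here are a signal, the mean of counts after the authors had divided these by size factors from DESeq, given as 1 overall mean and 1 mean per group. The authors' fold change, its log2 and their p-values and adjusted p-values hold their own comparison and were not used. No column holds a single sample, so 0 columns of samples were left unused.

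In every row the overall mean weighted the group means 4 and 7 of 11 (largest relative deviation 3.34e-09). The worth of 1 read in each library was found from the lowest means, and whole reads were searched for 4-library means of at most 80 and 7-library means of at most 6 and kept where a single combination matched within 6e-10 (6e-09 for means above 10). This gave the reads of 9632 of 9634 and 4463 of 4505 rows. Total reads per library are not known, so size factors stand for depth. The exact two-sided permutation test of the difference of mean normalized counts covered all 330 allocations of 11 libraries to groups of 4 and 7, with Benjamini-Hochberg adjustment over 4445 rows, and was tested on simulated data. The labels count as many animals as samples in each group. Intervals are exact 95% intervals and cover counting error only, with each read taken as independent. They may be too narrow where both reads of a pair were counted. As the floor, 3 reads were taken.

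Symbols came from RefSeq's genes of TriManLat1.0, matched by record without version number (10080 rows; 1658 with it). That table gives no chromosome, and no sequences were used. The 52 names, the origin, pathway and marker lists and the tests were chosen with earlier results of these data known. All members with a row are named. Other pathway genes with a row are named only if at least 4-fold apart with a higher mean of at least 10, and marker lists by 2 to 4 examples each. Alternatives concerned a pseudocount of 1, low means, centring, records per symbol, version matching, the fold limit of 4, the low-mean limit, log2 and rank tests, the recovery limits and leaving out each library; the ones without AHSG and with both means at most 6 were chosen after seeing the data. Analyses used Python 3.11.15, numpy 2.4.6, pandas 2.3.3 and scipy 1.17.1.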

Additional observations from a re-analysis of the deposited data

Results flagged for a closer look

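Among 15 groups of single libraries with at least 10 reads of a gene, 2 held a library whose gap to the nearest other library, relative to the whole range of its group, passed Dixon's 95% limit. For normally distributed values chance gives about 1 such group in 20. Sparse read counts are not of that kind, so the 2 groups cannot be read against this rate. In THBD the library of size factor 0.62 had 27.4 normalized counts against 6.81 in the nearest of the 4 libraries, a gap of 0.833 of the range. In C2 the library of size factor 1.56 had 15.4 normalized counts and the other 3 of the 4-library group had 0. The gap was 1.0 of the range, as it must be where 1 library holds all the reads.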

How the results depend on the processing

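The counts of genes at least 2-fold apart (6 and 3) and the medians stayed within 1.5 times and kept their sign, respectively, with 1 value per symbol and under a pseudocount of 1 (counts 5 and 2, medians 0.33 over all and 0.15 over leukocyte-made genes), the limit to overall means of at least 10 (5 and 3, 0.27 and 0.15), centring (6 and 3, 0.38 and 0.16) and without AHSG (5 and 3, 0.35 and 0.15). With records matched by version number only 4 genes were left, by construction of that alternative: the counts were 1 and 0, the median was 0.7, the median of leukocyte-made genes was -0.56 and the number of liver-made genes with both means under 10 was 2. At a 4-fold limit the counts were 4 and 0, and at a limit of 1 normalized count the number of liver-made genes with both means below it was 0. The number of genes with an exact permutation p under 0.05 ran from 0 to 1 over the fits that left out 1 library; the 1 was FGA without the library of size factor 1.56. For FGA the exact permutation p was 0.136 on log2(normalized count + 1) and 0.33 by rank sum. The log2 ratio of PROC, CP, C5, C1QC, ITIH4 and C2 turned sign without 1 library, as given in the report.

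Depth limits the liver-made genes most, since TTR, APOH, ITIH4 and AHSG rest on at most 6 reads a group. The 11 genes with 4-library means above 80 have no replicate error for that group, and only 7 genes have it for the 7-library group. No paired analysis was possible because the recovered libraries carry no replicate number.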
